A study of Mus musculus with 12 samples.

Results

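The accessibility of 9 genes was examined in embryonic fibroblasts (MEFs) and embryonic stem cells (mESCs) of the mouse: Thy1, Epcam and Fut4, which relate to the markers by which the cells were sorted, and Cldn4, Cldn6, Cldn7, Esrp1, Krt8 and Krt18, which are epithelial genes. Their peaks were all those that overlapped the annotated gene body (GENCODE M21, GRCm38) extended by 20 kb on each side, which gave 72 of the 91354 peaks of the BGI peak set and 73 of the 87027 peaks of the Illumina peak set. Of these, 16 BGI and 15 Illumina peaks lay in the windows of the sorting genes and 56 and 58 in those of the epithelial genes. The windows of Krt8 and Krt18 shared 3 peaks, which were counted once, and 36 of the 72 BGI peaks had the start site of one of the 9 genes as their nearest protein-coding start site. The others lay nearer to a neighbour such as Mettl27 beside Cldn4 or Tnfrsf12a beside Cldn6.

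OMNI-ATAC-seq, in which a transposase cuts and tags open DNA, had been applied to bulk cells of C57/Bl6 background. MEFs were sorted as Thy1+, and mESCs as Thy1-/Ssea1+/Epcam+, so the cells of both groups had been selected on THY1 protein and those of the mESC group also on EPCAM and SSEA1. Accessibility played no part in the sort, but differences at Thy1 and Epcam between the groups are not independent of it. There were 6 libraries, MEF 1, 2 and 4 and mESC 1, 3 and 5, and each was read by 2 sequencers, the DNBSEQ-G400 of BGI and the HiSeqX10 of Illumina, which gave 12 samples in 4 groups of 3. The platforms read the same libraries and are therefore not independent replicates of the cells. Reads were sequenced at 100 bases on BGI and at 150 bases on Illumina, where they were trimmed to 100 for analysis. In bulk material, fewer cells with an open site and less openness per cell cannot be told apart.

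THY1 is a glycosylphosphatidylinositol-anchored surface protein of fibroblasts, neurons and T cells. EPCAM is a homotypic adhesion molecule of epithelia that is also carried by pluripotent cells. SSEA1 is the Lewis X carbohydrate, and FUT4 is one of the fucosyltransferases that can add its fucose. Claudins seal tight junctions, ESRP1 directs epithelial splicing of pre-mRNA, and KRT8 and KRT18 pair into the intermediate filaments of simple epithelia. Mouse ES cells grow as tight, E-cadherin-bound colonies, whereas fibroblasts are mesenchymal.

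Promoter sequences of 5 of the genes are shown first, so that regions whose levels are given below can be read. Each is the part of the peak nearest to the gene start that lay upstream of it and outside every annotated exon (GRCm38.p6, from RefSeq), up to 300 bases, written 5′ to 3′ along the strand of the gene. For Epcam and Krt8 the peak nearest to the gene start is not the promoter peak with the most reads, which is the one compared between genes below. Cldn7 and Fut4 had all their promoter peaks downstream of the gene start, and Cldn6 had no promoter peak. Capitals mark matches on either strand to CACCTG (the E-box that Snail and Zeb repressors can bind), AACNGGTT (Grainyhead), GGGCGG (the GC box of Sp and Klf factors), ATGCAAAT (the octamer of POU factors) or TGANTCA (AP-1).
Thy1, chr9:44043101-44043383, plus strand: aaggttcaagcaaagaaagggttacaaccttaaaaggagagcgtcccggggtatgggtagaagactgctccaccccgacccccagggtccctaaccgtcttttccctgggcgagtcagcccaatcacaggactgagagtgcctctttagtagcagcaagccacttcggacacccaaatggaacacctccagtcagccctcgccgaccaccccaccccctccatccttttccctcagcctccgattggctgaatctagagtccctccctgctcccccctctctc
Epcam, chr17:87635679-87635978, plus strand: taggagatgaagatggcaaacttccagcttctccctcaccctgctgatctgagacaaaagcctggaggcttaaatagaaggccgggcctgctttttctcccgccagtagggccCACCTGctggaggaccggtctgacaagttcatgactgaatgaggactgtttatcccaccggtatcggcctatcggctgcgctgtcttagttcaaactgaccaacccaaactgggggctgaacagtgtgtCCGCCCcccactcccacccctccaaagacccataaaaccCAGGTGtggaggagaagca
Cldn4, chr5:134946935-134947234, minus strand: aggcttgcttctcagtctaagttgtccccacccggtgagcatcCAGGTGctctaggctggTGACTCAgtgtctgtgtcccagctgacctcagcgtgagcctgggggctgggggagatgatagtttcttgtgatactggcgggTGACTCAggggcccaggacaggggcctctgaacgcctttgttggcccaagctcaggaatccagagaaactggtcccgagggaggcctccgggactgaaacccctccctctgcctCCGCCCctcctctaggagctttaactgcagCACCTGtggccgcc
Krt8, chr15:102004483-102004679, minus strand: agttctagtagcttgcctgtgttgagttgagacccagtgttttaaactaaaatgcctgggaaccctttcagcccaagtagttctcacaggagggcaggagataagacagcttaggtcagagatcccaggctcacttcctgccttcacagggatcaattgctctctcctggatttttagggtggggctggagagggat
Krt18, chr15:102027880-102028179, plus strand: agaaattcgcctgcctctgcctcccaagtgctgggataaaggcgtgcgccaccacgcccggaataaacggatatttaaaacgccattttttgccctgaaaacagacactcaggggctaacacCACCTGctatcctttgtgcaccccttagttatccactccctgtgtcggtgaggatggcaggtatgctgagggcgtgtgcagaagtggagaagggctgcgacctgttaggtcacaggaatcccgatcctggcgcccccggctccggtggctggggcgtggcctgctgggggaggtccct

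CACCTG occurred 2 times each in the Epcam and Cldn4 stretches and once in that of Krt18, and was not found in those of Thy1 and Krt8. The Cldn4 stretch also held TGANTCA 2 times and GGGCGG once, and the Epcam stretch GGGCGG once. Over the whole 502-base BGI peaks, CACCTG was present in 24 of 38 window peaks that were higher in mESCs (63.2%), in 7 of 23 that were higher in MEFs (30.4%) and in 31.9% of all 91285 peaks with reference sequence. On the Illumina peak set the figures were 25 of 39 (64.1%), 8 of 25 (32.0%) and 32.4%. AACNGGTT occurred in 3 of the 38 mESC-higher BGI peaks and in 0 of the 23 MEF-higher ones, against 3.5% of all peaks, and TGANTCA in 13 and 9 against 25.2%. GGGCGG was found in 18 and 10 of these peaks, against 30.8% of all peaks, and ATGCAAAT in 1 and 1, against 3.21%. The window peaks mix promoter and other peaks. In the 29802 BGI peaks within 1 kb of any annotated start site, GGGCGG was present in 58.0% and CACCTG in 33.3%. TGANTCA was present in 13.2% of them, AACNGGTT in 2.96% and ATGCAAAT in 2.17%. These are matches of letters, and no test was made of them.

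The reads counted in peaks ranged from 15860985 to 21662775 per sample on the BGI set and from 15996202 to 21441767 on the Illumina set, with more in the MEFs because those samples had been down-sampled to a higher depth. CPM, the reads of a peak scaled to a common total of reads in peaks per sample, were computed on these totals, and as all peaks were 502 bases wide, levels of different peaks refer to the same length. The labelled cell types carried their defining markers: 13 of 14 fibroblast genes had a promoter peak called higher in MEFs on BGI, Pdgfra being the one that was not called, and 10 of 12 pluripotency genes had one called higher in mESCs, while Klf4 was called higher in MEFs (-0.27 ± 0.12, edgeR adjusted p = 0.0493) and Klf2 was not called. Of all BGI promoter peaks 23.0% were called higher in mESCs and 43.8% higher in MEFs, beside which these and the next counts stand. The pluripotency genes with the lowest p were Zfp42 (5.38 ± 0.16, edgeR adjusted p = 5.60e-14), Esrrb (6.12 ± 0.24, adjusted p = 6.55e-13) and Dppa5a (5.98 ± 0.25, adjusted p = 1e-12). Markers of other lineages that the cultures could hold were read too. Of the surface epithelium markers Krt5, Krt14, Krt15 and Trp63, 0 of 4 had a promoter peak on either platform. Of 5 endothelial genes 3 had one and were not called by edgeR (adjusted p = 0.0658 to 0.494 on BGI), with Kdr at 14.6 CPM in MEFs and 14.2 CPM in mESCs and summed levels of 28.7 to 30.9 CPM in MEFs and 27.6 to 32.2 CPM in mESCs on BGI. Of 6 primitive endoderm genes 3 were higher in mESCs and 2 in MEFs on BGI (summed 108 to 123 CPM in MEFs and 89.3 to 98.3 CPM in mESCs), with Sox17 at 2.50 ± 0.16 (edgeR adjusted p = 1.73e-10), Foxa2 at 2.07 ± 0.17 (adjusted p = 4.11e-09), Dab2 at -1.84 ± 0.10 (adjusted p = 2.01e-11) and Gata6 at -0.64 ± 0.11 (adjusted p = 3.67e-05). Of 4 tested trophectoderm genes 2 were higher in mESCs and 1 in MEFs on BGI (26.5 to 29.9 CPM and 43.3 to 51.6 CPM), with Tfap2a at 1.35 ± 0.16 (edgeR adjusted p = 4.25e-07), Eomes at 1.20 ± 0.15 (adjusted p = 6.93e-07) and Hand1 at -1.24 ± 0.23 (adjusted p = 8.58e-05). The part of these lineages in the epithelial results was not tested.

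The first comparison was of promoter peaks, one per gene: the peak within 1 kb of an annotated start site of the gene with the most reads over the 6 samples. Of the 9 genes 8 had one, and on both platforms 6 were called higher in mESCs and 2 higher in MEFs (edgeR quasi-likelihood F test, two-sided, with Benjamini-Hochberg adjusted p under 0.05 over all peaks). Over all protein-coding genes 23.0% of promoter peaks were called higher in mESCs and 43.8% higher in MEFs on BGI, and 23.4% and 45.4% on Illumina. The median log2 fold change of the 8 was 0.99 on BGI and 1.01 on Illumina, beside -0.18 and -0.17 for all promoter peaks. In all 8 the MEF and mESC samples did not overlap on either platform, a separation seen in 85.1% of all BGI peaks and 85.6% of all Illumina peaks.

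**Figure D1:**
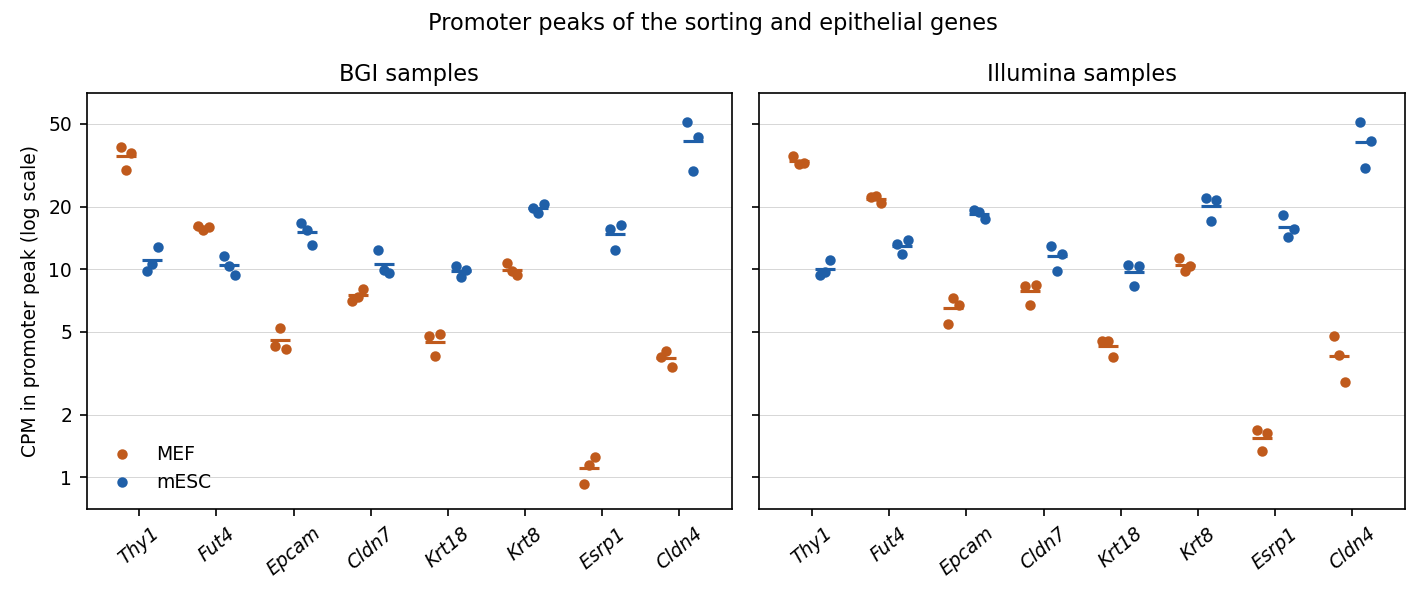
CPM of the promoter peak of 8 genes in every sample (vertical log axis), BGI samples left and Illumina samples right, with MEFs in orange, mESCs in blue and the mean of 3 as a bar. Thy1 and Fut4 sit higher in MEFs and the other 6 higher in mESCs, with Cldn4 and Esrp1 furthest apart.

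Thy1 (ENSMUSG00000032011.5, chr9:44043384-44048579, plus strand) had the most open of these promoters in MEFs. On BGI its peak at chr9:44043101-44043602, which spans the gene start, read 38.9, 30.1 and 36.1 CPM in MEF 1, 2 and 4 and 9.84, 10.6 and 12.9 CPM in mESC 1, 3 and 5. On Illumina the values were 35.0, 32.0 and 32.4 CPM and 9.38, 9.73 and 11.1 CPM. The log2 fold change of mESC over MEF was -1.72 ± 0.13 (SE, n = 3 and 3, edgeR adjusted p = 1.27e-09) on BGI and -1.76 ± 0.11 (adjusted p = 1.10e-10) on Illumina. The promoter was thus lower but still called as a peak in THY1-negative cells: every mESC sample had a MACS2 summit within 1 kb of a Thy1 start site, with a fold enrichment over background of 10.4 to 14.5 on BGI (median on Illumina 10.9), against 33.4 to 43.1 in the BGI MEFs (median on Illumina 39.4).

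Some regions around Thy1 had larger fold changes than its promoter. A peak at chr9:44029835-44030336, centred at -13299 bases from the gene start and in an intron of Gm39323, a lincRNA on the other strand, read 11.7, 7.80 and 8.81 CPM in the BGI MEFs and 0.631, 0.532 and 0.497 CPM in the mESCs. Its log2 fold change was -4.15 ± 0.29 (edgeR adjusted p = 5.23e-10), with -4.52 ± 0.34 on Illumina (adjusted p = 1.20e-09). It was the lowest fold change of all the window peaks on both platforms, and its central 300 bases (chr9:44029936-44030235, plus strand), chosen after its values were seen, held 1 match to the octamer, in capitals.
Thy1 distal: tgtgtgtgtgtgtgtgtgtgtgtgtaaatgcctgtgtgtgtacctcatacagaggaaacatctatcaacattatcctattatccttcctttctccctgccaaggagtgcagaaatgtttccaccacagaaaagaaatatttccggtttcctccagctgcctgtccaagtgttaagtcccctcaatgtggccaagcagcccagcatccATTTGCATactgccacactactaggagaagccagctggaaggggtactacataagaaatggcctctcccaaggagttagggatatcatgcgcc
A peak at -3418 bases from the start (-2.70 ± 0.23, edgeR adjusted p = 5.62e-09, BGI) and one 15459 bases after it (-3.34 ± 0.28, adjusted p = 3.70e-09) moved the same way. Of all BGI peaks 40.9% were called higher in mESCs and 43.2% higher in MEFs, beside which the counts of each window stand. In total 6 of the 8 BGI peaks of the window were higher in MEFs and 1, at the neighbouring Usp2, was higher in mESCs, at 0.51 ± 0.21 (edgeR adjusted p = 0.0335).

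Epcam (ENSMUSG00000045394.9, chr17:87635979-87651129, plus strand) was open in mESCs around its start, and all 4 peaks of its window were called higher in mESCs on both platforms. The promoter peak by the rule of most reads, chr17:87636319-87636820, lay 590 bases inside the gene and read 4.29, 5.22 and 4.13 CPM in the BGI MEFs and 16.7, 15.4 and 13.1 CPM in the mESCs. The Illumina MEFs read 5.46, 7.30 and 6.70 CPM and the mESCs 19.2, 18.8 and 17.4 CPM. Its log2 fold change was 1.66 ± 0.18 on BGI (edgeR adjusted p = 8.80e-08), with 1.47 ± 0.15 on Illumina (adjusted p = 4.05e-08). The fold change was larger over the gene start itself, at chr17:87635639-87636140, whose upstream sequence is printed above. There the BGI MEFs read 1.52, 1.99 and 1.54 CPM and the mESCs 11.1, 9.58 and 11.8 CPM, a log2 fold change of 2.61 ± 0.22 (edgeR adjusted p = 4.76e-09). Peaks 3605 and 4395 bases downstream of the start gave 3.08 ± 0.37 and 2.88 ± 0.32 on BGI (edgeR adjusted p = 4.45e-07 and 1.92e-07). The first is intronic and the second overlaps an exon, and the MEF samples read 0.785, 0.398 and 0.747 CPM in the first.

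Fut4 (ENSMUSG00000049307.6, chr9:14748320-14752393, minus strand) was more open in MEFs. Its promoter peak at chr9:14751655-14752156, wholly within an exon, read 16.16, 15.5 and 16.03 CPM in the BGI MEFs and 11.6, 10.4 and 9.38 CPM in the mESCs. On Illumina the peak read 22.2, 22.4 and 20.8 CPM in MEFs and 13.2, 11.9 and 13.8 CPM in mESCs. The log2 fold change was -0.67 ± 0.14 on BGI (edgeR adjusted p = 0.000241), with -0.80 ± 0.11 on Illumina (adjusted p = 4.07e-06), so the promoter of the fucosyltransferase was more open in the cells that had not been sorted for the epitope. Another window peak higher in MEFs, in an intron of Piwil4 and 21411 bases past the start, gave -0.64 ± 0.16 on BGI (edgeR adjusted p = 0.00136). The one peak higher in mESCs lay at the start of 1700012B09Rik, at 0.89 ± 0.25 (edgeR adjusted p = 0.00283).

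Other genes of fucosylation and of the glycan chain that carries Lewis X, B4galt1 and B3gnt2 among them, were called in both directions. Of 14 with a promoter peak, 5 were called higher in mESCs, 6 higher in MEFs and 3 not called on BGI, and 5, 7 and 2 on Illumina, with a median log2 fold change of -0.17 and -0.24, beside -0.18 and -0.17 for all promoter peaks. Of all promoter peaks 23.0% were called higher in mESCs and 43.8% higher in MEFs on BGI, and 23.4% and 45.4% on Illumina. Fut9, which also builds Lewis X, rose from 9.95 ± 1.89 (SD, n = 3) to 35.6 ± 5.86 CPM on BGI, a log2 fold change of 1.78 ± 0.15 (edgeR adjusted p = 4.84e-09), with 1.68 ± 0.12 on Illumina (adjusted p = 3.66e-10). Fut2, which fucosylates galactose, had the lowest p on BGI at 3.53 ± 0.29 (edgeR adjusted p = 3.20e-09), from 0.630 to 7.72 CPM, and Fut7 gave 1.07 ± 0.17 (adjusted p = 1.15e-05). Gmds, the first enzyme of GDP-fucose synthesis, was higher in MEFs at -0.49 ± 0.10 (edgeR adjusted p = 0.000216).

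Cldn4 (ENSMUSG00000047501.3, chr5:134945119-134946934, minus strand) had the highest promoter level in mESCs. Its promoter peak at chr5:134946843-134947344 read 3.79, 4.03 and 3.39 CPM in the BGI MEFs and 51.2, 29.8 and 43.5 CPM in the mESCs, mESC 3 being the lowest. The Illumina values were 4.76, 3.88 and 2.86 CPM and 51.1, 30.8 and 41.5 CPM, again with mESC 3 lowest. The log2 fold change was 3.40 ± 0.18 on BGI (edgeR adjusted p = 1.49e-11), with 3.37 ± 0.19 on Illumina (adjusted p = 2.77e-11). Openness extended well past the start. A peak over the coding exon, 1495 bases downstream, rose from 0.462, 0.994 and 0.946 CPM to 31.6, 33.2 and 35.8 CPM on BGI (5.32 ± 0.20, edgeR adjusted p = 3.01e-13), the highest fold change of all the BGI window peaks. One 4892 bases downstream, which overlaps an exon of the neighbouring Mettl27, rose from 1.06, 1.34 and 1.69 CPM to 40.6, 37.4 and 42.2 CPM (4.81 ± 0.16, edgeR adjusted p = 1.14e-13). Of the 16 BGI peaks in the window 12 were higher in mESCs and 2 higher in MEFs, and of the 17 Illumina peaks 13 and 2. Of the 4 BGI promoter peaks nearest to Mettl27, 1 was higher in MEFs (-0.37 ± 0.11, edgeR adjusted p = 0.00489) and the other 3 were higher in mESCs, at 1.08, 2.11 and 3.13.

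Cldn6 (ENSMUSG00000023906.3, chr17:23679249-23682446, plus strand) had no peak within 1 kb of its start sites in either peak set, and none of the 12 peaks in its window had it as the nearest gene. Single samples did carry summits there, with fold enrichments of 2.63 to 4.33 in the BGI MEFs and 4.73 to 7.13 in the BGI mESCs. In the Illumina data 2 of 3 MEF samples had one, at 3.89 and 4.70, and the mESCs reached 5.44 to 7.50. Of the 12 BGI peaks 6 were higher in each cell type, near the shares of all BGI peaks (40.9% in mESCs and 43.2% in MEFs). The lowest p among those higher in mESCs was at a peak over an exon of Bicdl2 (2.74 ± 0.26, edgeR adjusted p = 2.70e-08), and among those higher in MEFs at a peak over exons of Hcfc1r1 and of Tnfrsf12a, the TWEAK receptor (-1.58 ± 0.15, adjusted p = 1.67e-08). The promoter of Cldn9, a neighbouring claudin, rose from 2.62 to 8.52 CPM (1.63 ± 0.23, edgeR adjusted p = 3.15e-06, BGI).

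Cldn7 (ENSMUSG00000018569.12, chr11:69964779-69967885, plus strand) is annotated with several start sites, and its peaks gave different values. The promoter peak by the rule, chr11:69966488-69966989, read 7.06, 7.36 and 8.07 CPM in the BGI MEFs and 12.4, 9.93 and 9.57 CPM in the mESCs, and gave 0.44 ± 0.17 (edgeR adjusted p = 0.0226) on this set and, for Illumina, 0.51 ± 0.16 (adjusted p = 0.00795). This call did not pass without MEF 2 (edgeR adjusted p = 0.0504 on BGI and 0.0585 on Illumina) or without mESC 1 (0.135 and 0.05). A peak nearer to the first start, chr11:69965366-69965867, read 2.35, 2.49 and 3.19 CPM in MEFs and 9.46, 9.40 and 5.72 CPM in mESCs on BGI, with a log2 fold change of 1.55 ± 0.25 (edgeR adjusted p = 1.53e-05) and of 2.09 ± 0.20 for its Illumina counterpart (adjusted p = 2.23e-08). The peak between these gave -0.15 ± 0.18 and was not called (edgeR adjusted p = 0.461, BGI). In the rest of the window the lowest p on BGI among peaks higher in mESCs was at an intergenic one at -8958 bases from the Cldn7 start, which read 1.29, 1.14 and 1.10 CPM in MEFs and 5.93, 4.61 and 4.35 CPM in mESCs (2.0 ± 0.30, edgeR adjusted p = 6.02e-06). Among those higher in MEFs it was at a promoter peak of the neighbouring Slc2a4, the insulin-responsive glucose transporter (-0.37 ± 0.12, edgeR adjusted p = 0.00649).

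Esrp1 (ENSMUSG00000040728.15, chr4:11331933-11386783, minus strand) had the lowest promoter level in MEFs. Its promoter peak at chr4:11386598-11387099 read 0.923, 1.14 and 1.25 CPM in the BGI MEFs and 15.6, 12.4 and 16.4 CPM in the mESCs. The Illumina MEFs read 1.68, 1.34 and 1.62 CPM and the mESCs 18.1, 14.2 and 15.6 CPM. The log2 fold change was 3.67 ± 0.22 on BGI (edgeR adjusted p = 6.11e-11), with 3.31 ± 0.20 on Illumina (adjusted p = 5.34e-11). Both intergenic peaks within 3 kb upstream rose too, by 2.07 ± 0.16 and 2.17 ± 0.21 on BGI (edgeR adjusted p = 1.52e-09 and 2.94e-08). At the far end of the gene the MEF-higher peak of the window lay beside the start of Dpy19l4 (-2.94 ± 0.38, edgeR adjusted p = 1.14e-06).

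Both keratins, Krt8 (ENSMUSG00000049382.10, chr15:101996698-102004482, minus strand) and Krt18 (ENSMUSG00000023043.7, chr15:102028180-102032027, plus strand), had promoters more open in mESCs. The Krt18 promoter peak at chr15:102027870-102028371 read 4.76, 3.83 and 4.88 CPM in the BGI MEFs and 10.4, 9.23 and 9.88 CPM in the mESCs. On Illumina it read 4.52, 4.52 and 3.79 CPM and 10.4, 8.31 and 10.4 CPM. The log2 fold change was 1.06 ± 0.19 on BGI (edgeR adjusted p = 4.04e-05), with 1.13 ± 0.19 on Illumina (adjusted p = 2.13e-05). For Krt8 the promoter peak with the most reads was centred 1129 bases inside the gene, at chr15:102003103-102003604, and read 10.7, 9.79 and 9.41 CPM against 19.7, 18.7 and 20.7 CPM on BGI (0.91 ± 0.13, edgeR adjusted p = 3.96e-06) and 11.4, 9.84 and 10.4 CPM against 21.9, 17.04 and 21.5 CPM on Illumina (0.89 ± 0.13, adjusted p = 7.46e-06). The peak over the Krt8 start, chr15:102004178-102004679, was lower in level and further apart, at 1.29, 1.74 and 1.69 CPM in MEFs and 13.5, 10.4 and 12.3 CPM in mESCs (2.87 ± 0.22, edgeR adjusted p = 1.37e-09, BGI; 2.82 ± 0.24, adjusted p = 6.09e-09, Illumina).

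Both keratin windows shared an intergenic peak at chr15:102017828-102018329, between the genes, which had the highest fold change of the peaks in these windows on both platforms. It read 3.23, 1.74 and 2.04 CPM in the BGI MEFs and 27.0, 20.2 and 23.7 CPM in the mESCs, with a log2 fold change of 3.26 ± 0.20 (edgeR adjusted p = 1.25e-10), with 3.04 ± 0.16 on Illumina (adjusted p = 1.30e-11). Its central 300 bases (chr15:102017929-102018228, plus strand), shown because its fold change exceeds those of both keratin promoters and also chosen after its values were seen, held 1 AP-1 match, in capitals.
Krt8 and Krt18 distal: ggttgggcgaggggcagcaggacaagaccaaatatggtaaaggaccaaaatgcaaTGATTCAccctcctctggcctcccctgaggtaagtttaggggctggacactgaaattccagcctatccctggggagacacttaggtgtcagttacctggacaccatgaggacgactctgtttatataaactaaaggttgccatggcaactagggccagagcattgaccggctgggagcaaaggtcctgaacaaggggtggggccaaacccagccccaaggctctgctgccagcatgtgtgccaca
The same stretch of chromosome also held regions that were more open in fibroblasts. A peak 17681 bases past the Krt18 start read 27.2, 26.4 and 13.7 CPM in MEFs and 3.91, 1.77 and 3.54 CPM in mESCs on BGI (-2.95 ± 0.27, edgeR adjusted p = 1.71e-08), MEF 4 being the lowest of the MEFs. One at -2330 bases from the Krt18 start gave -1.08 ± 0.17 (edgeR adjusted p = 9.30e-06). The lowest p of the MEF-higher peaks in the Krt8 window was at an intergenic one 20092 bases past the Krt8 start, which read 54.8, 59.6 and 57.5 CPM in MEFs and 37.1, 38.7 and 38.6 CPM in mESCs on BGI (-0.65 ± 0.09, edgeR adjusted p = 1.35e-06). In the Krt8 window 5 of 9 BGI peaks were higher in mESCs and 2 in MEFs, and in the Krt18 window 4 and 2 of 8, with 3 peaks counted in both, beside 40.9% and 43.2% of all BGI peaks.

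Taking all windows, 38 of 72 BGI peaks were called higher in mESCs (52.8%), 23 higher in MEFs (31.9%) and 11 were not called. Of all BGI peaks 40.9% were called higher in mESCs and 43.2% higher in MEFs. On Illumina 39 of 73 window peaks were higher in mESCs and 25 in MEFs, beside 42.1% and 42.4% of all peaks. The median log2 fold change of the window peaks was 0.59 on BGI and 0.68 on Illumina, and that of all peaks -0.08 and -0.03. The epithelial windows held 32 mESC-higher and 15 MEF-higher of 56 BGI peaks and the sorting windows 6 and 8 of 16. In 60 of the 72 BGI peaks and 61 of the 73 Illumina peaks the MEF and mESC samples did not overlap, which is near the share of all peaks given above (85.1% and 85.6%). The peak sets merged peaks reproducible in either cell type, so a peak could enter only through the cell type where it was high. The 4 BGI Epcam peaks entered through the mESCs alone. Calls and low levels in the other cell type are therefore not independent of how peaks were chosen, and the shares of all peaks carry the same limit.

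**Figure D2:**
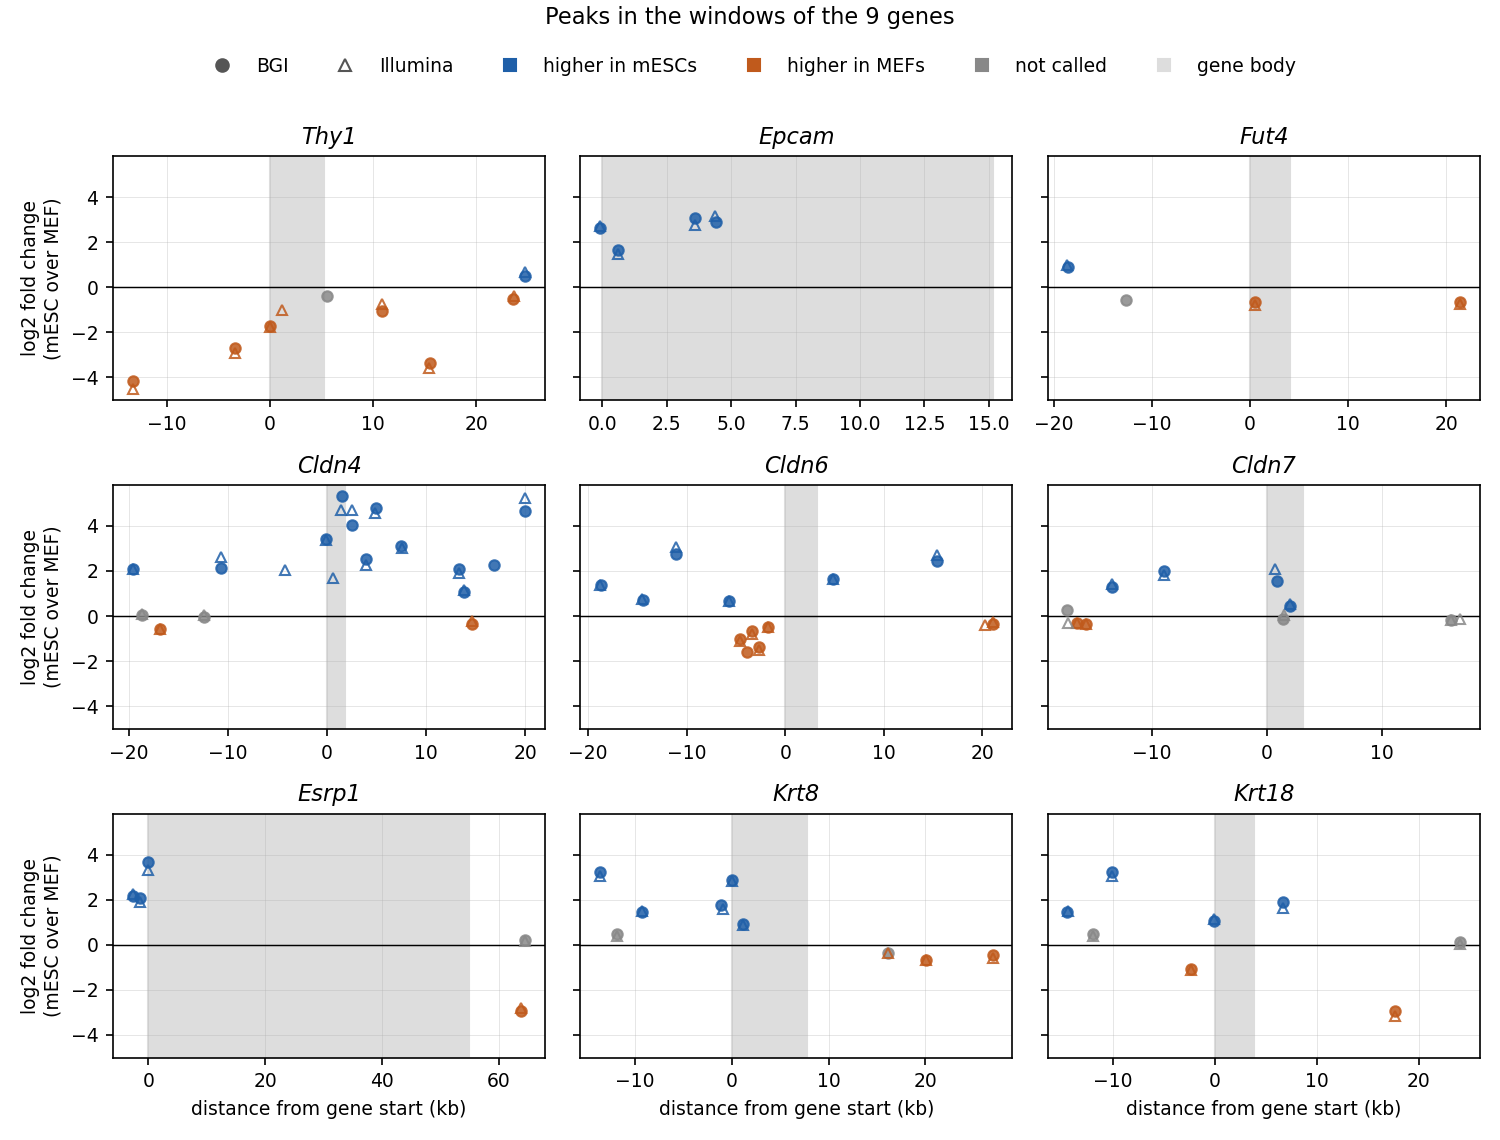
Log2 fold change of mESC over MEF (vertical axis) of every window peak against the distance of its centre from the gene start (horizontal axis, kb, in the direction of transcription) for the 9 genes, with the gene body in grey, filled circles for BGI and open triangles for Illumina. Epcam and Cldn4 peaks are mostly blue (higher in mESCs), Thy1 peaks mostly orange (higher in MEFs), and the Cldn6 window holds 6 of each on BGI.

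Summing the reads of a window gave a value per locus that does not rest on the choice of 1 peak. Of 9 loci 5 were called higher in mESCs and 2 higher in MEFs on both platforms, where 39.6% and 39.3% of all 18376 BGI loci and 39.1% and 39.8% of all Illumina loci were. The Epcam window rose from 7.87 ± 0.30 (SD, n = 3) to 39.5 ± 3.12 CPM on BGI (2.26 ± 0.12, edgeR adjusted p = 2.32e-13) and the Cldn4 window from 88.4 ± 4.58 to 289 ± 26.3 CPM (1.65 ± 0.06, adjusted p = 2.72e-15). Esrp1 gave 0.87 ± 0.08 (edgeR adjusted p = 1.11e-09) and Krt8 0.28 ± 0.07 (adjusted p = 0.00102). Krt18 gave 0.32 ± 0.10 (edgeR adjusted p = 0.00793), a call that did not pass with DESeq2 (adjusted p = 0.105) or without mESC 1 (edgeR adjusted p = 0.106). Both keratin calls rested on the 3 peaks that their windows share. Without these, in a fit added after the data were seen, the Krt18 sum was higher in MEFs, at 52.1 ± 6.42 CPM against 39.2 ± 3.16 CPM in mESCs on BGI (-0.48 ± 0.10, edgeR adjusted p = 0.000144) and at -0.48 ± 0.12 on Illumina (adjusted p = 0.00126). The Krt8 sum was then not called (edgeR adjusted p = 0.457 on BGI at -0.05 ± 0.07, with 0.322 on Illumina at -0.08 ± 0.08), which left 3 loci higher in each cell type on both platforms. Thy1 fell from 123 ± 10.9 to 55.9 ± 3.38 CPM (-1.20 ± 0.07, edgeR adjusted p = 2.76e-12) and Fut4 from 37.8 ± 2.19 to 30.3 ± 2.31 CPM (-0.39 ± 0.10, adjusted p = 0.000955). Cldn6 (-0.11 ± 0.05, edgeR adjusted p = 0.0524) and Cldn7 (-0.01 ± 0.06, adjusted p = 0.886) were not called, and their sign changed with the scaling. With the gene body extended by 5 kb in place of 20 kb both were called, the Cldn6 window higher in MEFs (-0.72 ± 0.08, edgeR adjusted p = 1.97e-08, BGI) and Cldn7 higher in mESCs (0.53 ± 0.12, adjusted p = 0.000449). Every peak in the Cldn6 sums lay nearer to the start site of another gene, so that call is of the region and not of the Cldn6 promoter.

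Both sequencers gave like values at these genes. Of the window peaks 68 could be matched between the peak sets by an overlap of at least 50%, and 65 of these had the same sign on both. Of the 68, 59 were called in the same direction on both, 1 on Illumina alone, 0 on BGI alone and 8 on neither. The median absolute difference of the 68 log2 fold changes was 0.12 and the largest was 0.68. A test of whether the cell-type difference depended on the sequencer called 0 of the 72 BGI peaks (edgeR interaction term, 0 at an unadjusted p under 0.05, beside 2.61% of all peaks), and DESeq2 likewise called 0, with 0.0% of all peaks called. With the library as a block, since both platforms read the same 6 libraries, it called 0 of the 72, while 0.386% of all peaks were called. In that fit 9 of the 72 (12.5%) had an unadjusted p under 0.05, as did 13.2% of all peaks. The interaction estimates of the 72 ranged from -0.56 to 0.54 on the log2 scale.

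**Figure D3:**
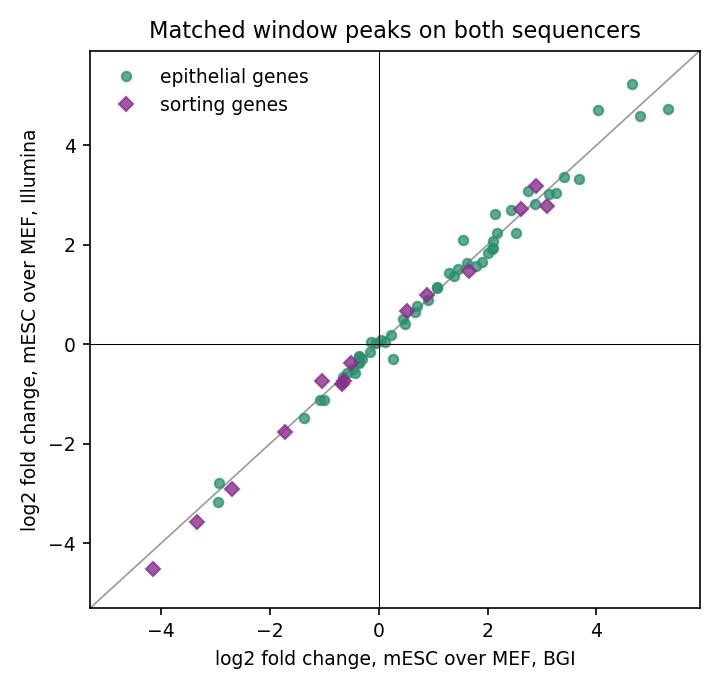
Log2 fold change of mESC over MEF on Illumina (vertical axis) against BGI (horizontal axis) for the 68 matched window peaks, epithelial genes as circles and sorting genes as diamonds, with the line of equality. Points lie along the line, with a largest difference of 0.68.

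Other genes of the epithelial program were read at their promoters to place the 6. Of 34 listed genes 30 had a promoter peak, and 23 were called higher in mESCs, 5 higher in MEFs and 2 not called on BGI (median log2 fold change 1.23), and 24, 4 and 2 on Illumina (0.84). Over all promoter peaks the shares were 23.0% higher in mESCs and 43.8% higher in MEFs on BGI, and 23.4% and 45.4% on Illumina. F11r, a junctional adhesion molecule, rose from 6.05 to 41.7 CPM on BGI (2.72 ± 0.12, edgeR adjusted p = 1.78e-12). Cldn3 rose from 7.64 to 33.8 CPM (2.08 ± 0.12, edgeR adjusted p = 3.81e-11), and Cdh1, which encodes E-cadherin, from 7.70 to 33.7 CPM on Illumina (2.09 ± 0.12, adjusted p = 4.94e-11). Elf3, an epithelial ETS factor, gave 2.46 ± 0.15 on BGI (edgeR adjusted p = 8.67e-11), with only 0.33 ± 0.11 on Illumina (adjusted p = 0.00963), where another of its promoter peaks held the most reads. Krt19, also a simple keratin, was higher in MEFs at -1.32 ± 0.20 on BGI (edgeR adjusted p = 1.05e-05).

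Claudins as a family were mixed. Cldn1 and Cldn3 stand in both this list and the former. Of 9 further claudins with a promoter peak on BGI, 4 were higher in mESCs, 3 higher in MEFs and 2 not called, and of 10 on Illumina 5, 4 and 1, beside the shares of all promoter peaks given for the epithelial list. Cldn23 was among the first group on BGI (0.64 ± 0.15, edgeR adjusted p = 0.000764) and among the second on Illumina (-0.59 ± 0.12, adjusted p = 0.000201), where another of its promoter peaks held the most reads. Cldn5, the endothelial claudin, had the lowest p on BGI, at 5.06 CPM in MEFs and 31.4 CPM in mESCs (2.56 ± 0.13, edgeR adjusted p = 7.74e-12), and Cldn1 was lower in mESCs (-0.82 ± 0.15, adjusted p = 8.74e-05). Among 7 mesenchymal regulators 4 were higher in MEFs, 1 higher in mESCs and 2 not called on both platforms, where 43.8% (BGI) and 45.4% (Illumina) of all promoter peaks were higher in MEFs and 23.0% and 23.4% higher in mESCs. Prrx1 (-3.07 ± 0.21, edgeR adjusted p = 3.69e-10), Twist2 (-2.61 ± 0.14, adjusted p = 1.94e-11) and Twist1 (-2.15 ± 0.15, adjusted p = 5.14e-10), all transcription factors of mesenchyme, were higher in MEFs on BGI. Zeb1, a repressor of epithelial genes, was the one higher in mESCs, at 0.59 ± 0.19 (edgeR adjusted p = 0.00853) on BGI and 0.42 ± 0.14 (adjusted p = 0.0101) on Illumina. Its call did not pass without mESC 3 (edgeR adjusted p = 0.0504 and 0.137), nor with the BGI samples on the Illumina peak (0.37, adjusted p = 0.0591). The fibroblast genes Lox (-3.26 ± 0.15, edgeR adjusted p = 2.26e-12), Col1a2 (-2.67 ± 0.12, adjusted p = 2.61e-12) and Pdgfrb (-2.43 ± 0.11, adjusted p = 2.71e-12) were also higher in MEFs on BGI.

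**Figure D4:**
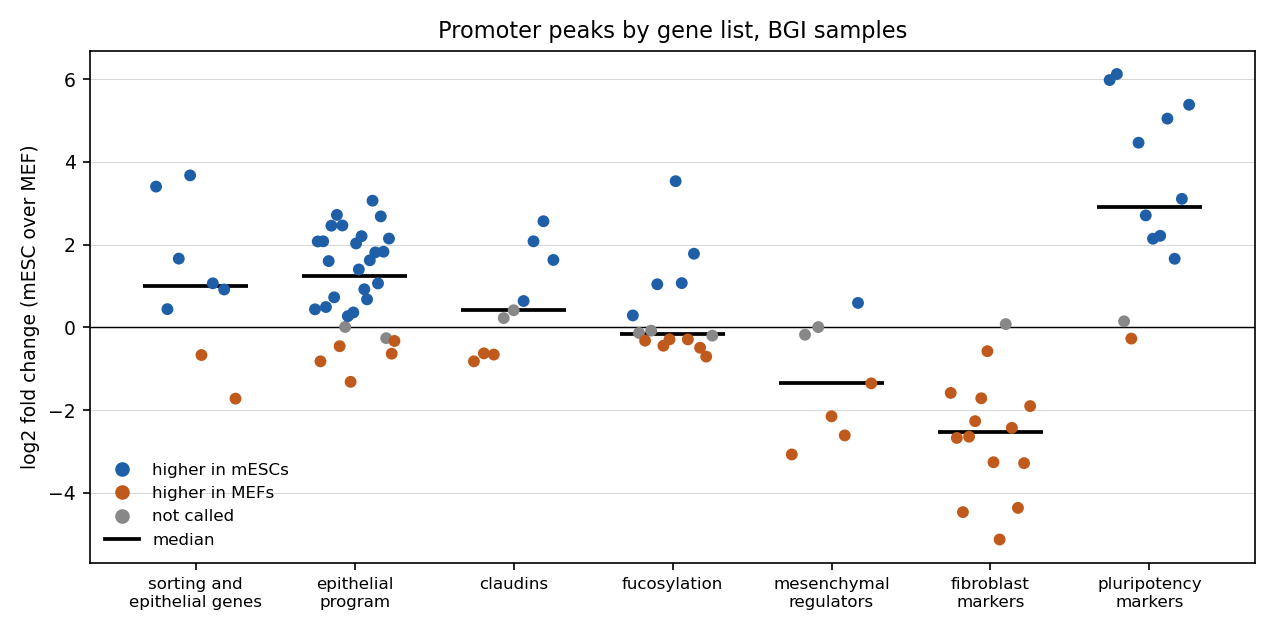
Log2 fold change of mESC over MEF at the promoter peak of each gene (points, BGI samples) for the 8 sorting and epithelial genes with a promoter peak and for 6 other lists, blue where called higher in mESCs, orange where called higher in MEFs and grey where not called, with the median as a bar. The epithelial program has its median at 1.23 and the mesenchymal regulators at -1.35.

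The order of the 8 promoters, each at its peak with the most reads, differed between the cells. In the BGI MEFs it ran Thy1 (35.0 CPM), Fut4 (15.9), Krt8 (9.96), Cldn7 (7.50), Epcam (4.55), Krt18 (4.49), Cldn4 (3.73) and Esrp1 (1.10), and the samples of neighbouring genes overlapped only between Epcam and Krt18 and between Krt18 and Cldn4. In the BGI mESCs Cldn4 was first (41.5 CPM), followed by Krt8 (19.7), and both stood apart from the next gene. Epcam (15.1), Esrp1 (14.8), Thy1 (11.1), Cldn7 (10.6), Fut4 (10.5) and Krt18 (9.84) followed, each overlapping its neighbour in the order, so that Thy1, in cells sorted as negative for its protein, overlapped Esrp1 and Cldn7 on BGI. Within every BGI mESC sample Thy1 was still below Esrp1, at 9.84, 10.6 and 12.9 CPM against 15.6, 12.4 and 16.4 CPM in mESC 1, 3 and 5. On Illumina the first and last places were the same in both cells, and in mESCs the places of Fut4 and Thy1 were exchanged. There Thy1 (9.38 to 11.1 CPM) lay below all Esrp1 samples (14.2 to 18.1 CPM) and Krt8 overlapped Epcam, and in the Illumina MEFs Cldn7 overlapped Epcam while Epcam stood apart from Krt18. At the peak nearest to the gene start, a choice made after the values were seen, the BGI MEFs averaged 1.58 CPM at Krt8, 1.69 CPM at Epcam and 2.68 CPM at Cldn7, and the BGI mESCs 12.1, 10.8 and 8.19 CPM. With these values and the other genes as above, Krt8 came after Esrp1 and Cldn7 was last in mESCs, so the order holds only for the peaks with the most reads.

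For the sorting genes, the protein-coding genes with the most similar promoter profile were sought among 15129 by the Euclidean distance of log2 CPM over the 6 BGI samples. Nearest to Thy1 were Phldb1 (0.334), Ldha (0.356) and Fbxl7 (0.433). Nearest to Epcam were Pdgfb (0.281), Slco4c1 (0.304) and Lhcgr (0.340), and nearest to Fut4 were Irf7 (0.117), Ccdc22 (0.192) and Gyg (0.207). On Illumina, among 15185 genes, other genes took these places, namely Capg, Tmem119 and Antxr2 for Thy1, Esyt3, Htra4 and Rbm47 for Epcam, and Timp3, Map6 and Naglu for Fut4.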

How the data were processed

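Per the study's methods, the authors aligned reads to GRCm38, removed duplicates and mitochondrial reads, down-sampled MEF samples to 60 M and mESC samples to 45 M reads, called peaks per sample with MACS2, and merged reproducible peaks of both cell types into one set per platform. The deposited tables hold raw read counts per peak and sample, without normalization. The deposited peak calls give a fold enrichment ratio over background and a −log10 p-value per summit, from which the strongest within 1 kb of a start site was taken. The deposited reproducible-peak lists served only as a check and to see through which cell type the Epcam peaks entered. The authors named the platform only in BGI columns, and the others were taken as Illumina; this was checked from the peak calls (Spearman rho 0.757 to 0.799 over 6 libraries). Per-sample columns not used numbered 0. The 2 tables that join platforms within a cell type were not used.

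Counts were tested across all peaks with edgeR 4.0.16 (R 4.3.3; TMM, default filter, quasi-likelihood F test) for 3 mESC against 3 MEF samples per platform, at a Benjamini-Hochberg adjusted p of 0.05. DESeq2 1.42.0 was an alternative. Fits were tested on simulated data. CPM are per reads in peaks, whereas fold changes are TMM-scaled; log2 CPM used a prior count of 2. Libraries share numbers between platforms: samples of the same library deviated together (r = 0.489 to 0.727 in MEFs, 0.453 to 0.653 in mESCs) and those of different libraries less (-0.539 to 0.118 and -0.451 to -0.137). The study names the libraries biological replicates.

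Named were all 9 genes, their promoter peaks, the lowest-p called BGI peak of each window in each direction, and of other lists the lowest-p called gene in each direction with up to 2 more on BGI; peaks nearest a gene start, the gene not called in the fibroblast list and other examples were chosen after their values were seen. Genes and lists were chosen with earlier results of these data known. Sequences came from the peak nearest to the gene start, where the rule had named the promoter peak with the most reads. The sequence of 1 promoter and the values of 2 listed genes are not reported here.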

Additional observations from a re-analysis of the deposited data

How the results depend on the processing

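Counts of window peaks called in each direction stayed within 1.5 times under DESeq2, other scalings, other filters, the other platform's samples and summed platforms, and ranged from 36 to 40 (higher in mESCs) and 22 to 24 (higher in MEFs) on BGI and from 37 to 40 and 22 to 24 on Illumina when 1 library was left out. They moved with the window, as fewer or more peaks were tested: a 5 kb extension gave 20 and 9 on BGI and 22 and 9 on Illumina, 50 kb gave 70 and 43, and 66 and 45, and peaks nearest to a start site of the 9 genes 21 and 9, and 23 and 11. Requiring a log2 fold change of at least 1 left 11 and 10 MEF-higher peaks in place of 23 and 25, while the mESC-higher counts stayed within 1.5 times. The shares of all peaks at this threshold and the numbers tested in the other windows are not given here. Library sizes fixed at the down-sampled depth moved the median of all peaks by 0.14 on BGI and 0.13 on Illumina. Of the called window peaks 67.8% (BGI) and 69.5% (Illumina) were then higher in mESCs, beside 62.3% and 60.9% with TMM. This share rose among all called peaks too: TMM gave 48.6% (BGI) and 49.8% (Illumina), the fixed sizes 52.8% and 53.7%. With the fixed sizes the locus sum of Cldn6 was 0.0308 on BGI and 0.0521 on Illumina, and that of Cldn7 0.13 and 0.13. The Cldn7 sum was called higher in mESCs with a 5 kb window, at 0.53 and 0.76 (edgeR adjusted p = 0.000449 and 7.08e-06), and was 0.0059 on Illumina with DESeq2 and with RLE factors, and from -0.0493 to 0.0704 on BGI and -0.0344 to 0.0356 on Illumina with 1 library left out. The Cldn6 sum was called higher in MEFs with a 5 kb window (-0.72 and -0.68) and, on BGI, without MEF 4, mESC 1 or mESC 5 (edgeR adjusted p = 0.0443, 0.042 and 0.0347), and on Illumina without mESC 1 (0.0369). That sum holds no peak whose nearest start site is that of Cldn6. Leaving out the 3 peaks that both keratin windows share, an alternative chosen after seeing the data, left 3 loci higher in mESCs on each platform in place of 5, with locus sums of -0.0536 (BGI) and -0.0846 (Illumina) at Krt8 and -0.48 and -0.48 at Krt18. Where no construction shows it, the cause was not tested. The block of library as a replicate changed no interaction call at the window peaks (0 and 0 called). No paired analysis was possible because the MEF and mESC libraries share only the number 1 (cell-type comparison). Reads limit the precision of peaks near 0 in one cell type, and a fold change there rests on few MEF or mESC reads.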
